A study of Mus musculus with 4 samples.

Results

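The open chromatin of the 5 genes of the Ikaros transcription factor family was examined in lymph node (LN) regulatory T (Treg) cells of WT and Il2ramut/mut mice. The members are Ikzf1 (Ikaros), Ikzf2 (Helios), Ikzf3 (Aiolos), Ikzf4 (Eos) and Ikzf5 (Pegasus). Every called ATAC-seq peak that touched the GENCODE gene body of a member or the 20 kb on either side was taken, and peaks of the 4 libraries that shared at least 1 bp were merged into 1 region. This gave 115 regions of the 272233 merged regions of the genome: 33 at Ikzf1, 44 at Ikzf2, 29 at Ikzf3, 6 at Ikzf4 and 3 at Ikzf5. Of these, 47 had a called peak in each of the 4 libraries.

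Ikaros family proteins bind DNA through zinc fingers near the N terminus and pair with one another through zinc fingers at the C terminus. They act mostly with chromatin complexes, among them NuRD, Sin3 and CtBP, and can hold genes silent or keep them open. Ikaros and Aiolos are best known from lymphocyte development, while Helios and Eos are highly expressed in Treg cells, where both have been tied to the stability of the suppressive state. Pegasus is the most distant member of the family and is expressed in many tissues.

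Treg cells were sorted as RFP+ cells from LNs of Foxp3-RFP reporter mice, 50000 cells per library, and 2 biological replicates per genotype were profiled by ATAC-seq, in which a transposase cuts open DNA. All mice were unstimulated C57BL/6 females of 6 to 8 weeks and carried the Foxp3 reporter. WT mice had the normal Il2ra gene. Il2ramut/mut mice were homozygous for a point mutation that appeared in a Ccr2-/- colony, was bred onto Ccr2+/+ and replaces a tyrosine of CD25, the alpha chain of the IL-2 receptor, so that their Treg cells receive weaker IL-2 signals. The comparison asks whether weaker IL-2 signalling goes with another chromatin state at these loci.

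The 4 peak lists held between 112569 and 142732 peaks. Each peak carries the fold enrichment of reads at its summit over a background and a −log10 p, and both measures ranked the peaks of a library identically. Summit values came out as whole reads in 100% of the peaks (tolerance 0.01 reads), over a background of 0.974 to 1.23 reads, and the median peak held 8 to 10 reads. Because the libraries differ in background, peaks are compared by their percentile, the rank of their −log10 p among the peaks of the same library. Tied peaks take the average of their ranks, and ties are many, since a library held only 235 to 316 different values. A region without a called peak in a library has no value there, which is not a value of 0. Of the T cell and Treg genes fixed as markers, among them Foxp3 and Il2ra, 8 of 8 had a called peak within 1 kb of a start site in every library (percentiles 71.4 to 98.5). Among markers of other cells, Cd8b1, Pax5, Ebf1 and Gata1 also had one in every library, Cd14 in 2 libraries, and Cd8a, Ms4a1, Cd79a, Lyz2, Itgam, Csf1r, Ncr1, Klrb1c and Hbb-bs in none. The part of other cells in the results was not tested. In sorted bulk cells, a region open in fewer cells and a region less open in every cell cannot be told apart.

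The sequences that the description turns on are given first, from the reference genome (GRCm38, plus strand). Each is the stretch of 200 bases around the summit, shortened to 79 bases for Ikzf5, where the rest is annotated as untranslated. The first 5 come from the tallest intronic region of each locus, or the promoter for Ikzf5, the next pair are the Ikzf2 regions found in both libraries of a single genotype and reproducible there, and the last is the Ikzf3 region with the widest difference in percentile between genotypes. Capitals mark the Ikaros family core word TGGGAA and the STAT word TTCNNNGAA, read on both strands.
Ikzf1 intron 3 (chr11:11726186-11726385): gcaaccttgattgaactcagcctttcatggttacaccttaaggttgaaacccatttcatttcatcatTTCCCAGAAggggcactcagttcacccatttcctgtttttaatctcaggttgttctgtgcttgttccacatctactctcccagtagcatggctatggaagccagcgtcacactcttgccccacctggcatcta
Ikzf2 intron 6 (chr1:69544300-69544499): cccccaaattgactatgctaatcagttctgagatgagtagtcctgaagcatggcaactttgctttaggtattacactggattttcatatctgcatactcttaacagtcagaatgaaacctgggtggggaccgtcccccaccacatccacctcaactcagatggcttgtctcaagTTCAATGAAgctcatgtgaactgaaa
Ikzf3 intron 7 (chr11:98470230-98470429): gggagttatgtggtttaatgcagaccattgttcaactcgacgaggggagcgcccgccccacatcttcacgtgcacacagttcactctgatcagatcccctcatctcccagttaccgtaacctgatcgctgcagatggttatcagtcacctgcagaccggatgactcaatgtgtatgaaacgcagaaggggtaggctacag
Ikzf4 intron 5 (chr10:128637146-128637345): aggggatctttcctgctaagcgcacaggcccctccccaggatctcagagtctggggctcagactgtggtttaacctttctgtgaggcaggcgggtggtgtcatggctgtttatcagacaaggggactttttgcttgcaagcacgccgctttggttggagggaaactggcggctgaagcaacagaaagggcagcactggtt
Ikzf5 promoter (chr7:131410522-131410600): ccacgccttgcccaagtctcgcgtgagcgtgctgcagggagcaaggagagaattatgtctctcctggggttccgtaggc
Ikzf2 intron 3, called in both WT libraries (chr1:69626236-69626435): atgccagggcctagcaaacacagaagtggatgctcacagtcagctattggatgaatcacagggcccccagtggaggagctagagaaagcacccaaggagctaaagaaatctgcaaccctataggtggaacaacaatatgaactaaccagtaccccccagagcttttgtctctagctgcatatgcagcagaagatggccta
Ikzf2 intron 3, called in both Il2ramut/mut libraries (chr1:69655489-69655688): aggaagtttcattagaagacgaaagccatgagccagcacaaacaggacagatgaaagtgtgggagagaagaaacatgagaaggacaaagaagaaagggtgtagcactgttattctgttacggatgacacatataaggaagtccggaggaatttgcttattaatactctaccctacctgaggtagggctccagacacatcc
Ikzf3 upstream (chr11:98546615-98546814): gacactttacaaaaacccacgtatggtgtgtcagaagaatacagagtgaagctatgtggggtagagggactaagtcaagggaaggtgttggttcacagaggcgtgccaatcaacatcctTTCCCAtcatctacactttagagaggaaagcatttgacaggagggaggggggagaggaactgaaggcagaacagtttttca

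The Ikzf1 window holds both words in overlap, as one run in which the reverse complement of TGGGAA forms the first part of the STAT word. The tall Ikzf2 window holds a STAT word and no Ikaros core, and the Ikzf3 upstream window holds an Ikaros core and no STAT word. In the windows from Ikzf3 intron 7, Ikzf4 intron 5, the Ikzf5 promoter and the pair of single-genotype Ikzf2 regions, neither word is present.

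Peaks covered a larger share of the windows of Ikzf3, Ikzf1 and Ikzf4 than of Ikzf2, and the window of Ikzf5 was covered least. At Ikzf3, 8.92%, 12.2%, 7.31% and 7.13% of the window lay under called peaks in WT replicates 1 and 2 and Il2ramut/mut replicates 1 and 2, the order in which library values are given throughout. At Ikzf1 the values were 7.23%, 10.5%, 6.28% and 8.76%. Ikzf4 had 7.53%, 8.21%, 6.02% and 7.64%, and Ikzf2 had 3.82%, 7.73%, 5.69% and 4.79%. Only 2.76%, 3.18%, 3.12% and 2.73% of the Ikzf5 window were covered. WT replicate 2 was the highest library at all 5 loci, as it was in total covered length (52.3 Mb, against 42.6 to 51.9 Mb in the others).

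The means were 8.88% ± 2.33 (SD, n = 4) for Ikzf3, 8.18% ± 1.83 for Ikzf1, 7.35% ± 0.936 for Ikzf4, 5.51% ± 1.67 for Ikzf2 and 2.95% ± 0.236 for Ikzf5. Among 21938 protein-coding genes treated alike, with a median of 2.06%, they stood at the percentiles 95.1, 93.7, 91.7, 84.6 and 63.0. Neighbours in this order were compared within libraries. The order came from the means of these same 4 libraries, which span both genotypes. The p-values that follow therefore give it no independent support. Ikzf3 exceeded Ikzf1 in 3 of 4 libraries, and Ikzf1 exceeded Ikzf4 in 3 of 4 (exact permutation p = 0.375 for each, two-sided). Ikzf4 exceeded Ikzf2 in 4 of 4, by 1.84 points on average, and Ikzf2 exceeded Ikzf5 in 4 of 4, by 2.56 points, each with an exact permutation p of 0.125, the smallest that 4 libraries allow. After Benjamini-Hochberg adjustment over the 4 comparisons these exact values became 0.375 and 0.25. The differences among the upper 3 loci were smaller than their spread between libraries.

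**Figure D1:**
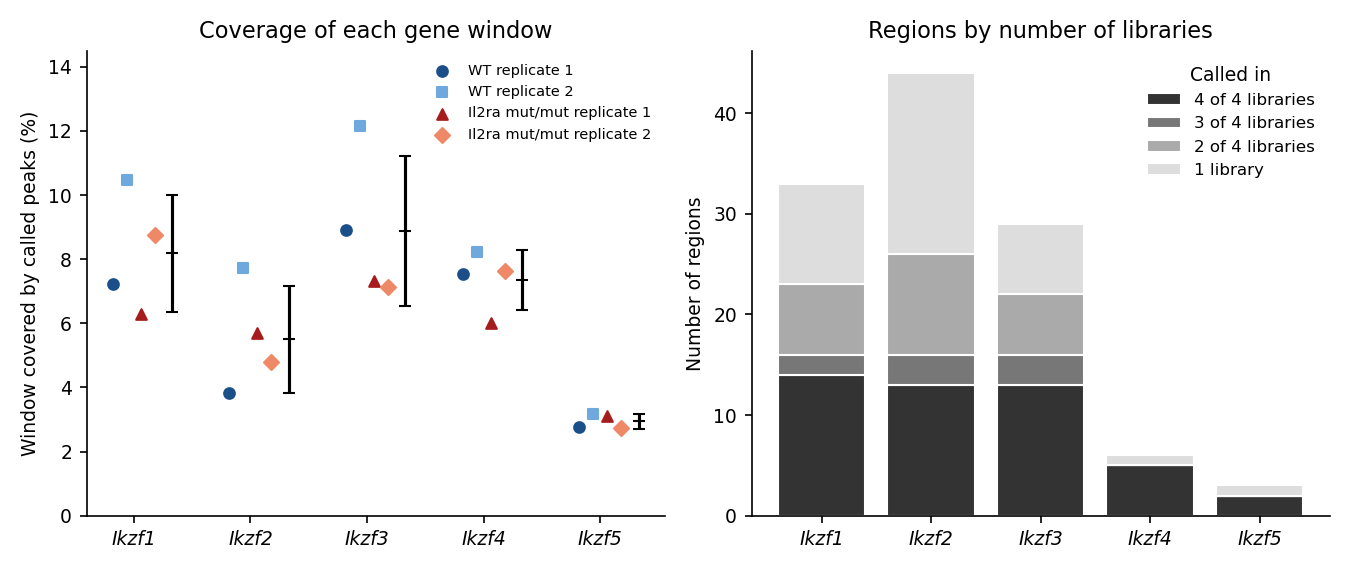
Left, percentage of each gene window (gene body plus 20 kb on either side) under called peaks, 1 point per library, with the mean and SD of the 4 libraries in black. Right, number of merged regions per locus by the number of libraries in which they were called; 14, 13, 13, 5 and 2 regions of Ikzf1 to Ikzf5 were called in all 4.

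Regions that were open in every library made up 40.9% of the family's regions, against 14.1% over the genome. They numbered 14 of 33 at Ikzf1, 13 of 44 at Ikzf2, 13 of 29 at Ikzf3, 5 of 6 at Ikzf4 and 2 of 3 at Ikzf5. Without the 7 regions that hold a start site of another gene, 41 of 108 were called in all 4 libraries. Of the 47, 28 had their summit in an intron of the member, 2 in an exon, 9 upstream and 8 downstream. At the other end, 37 regions (32.2%, against 61.3% over the genome) were called in a single library. Their summits held 5 to 13 reads, with a median of 8, about the median of all peaks. WT replicate 2 alone accounted for 22 of these 37 (59.5%), while it held 24.4% of the single-library regions of the genome.

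**Figure D2:**
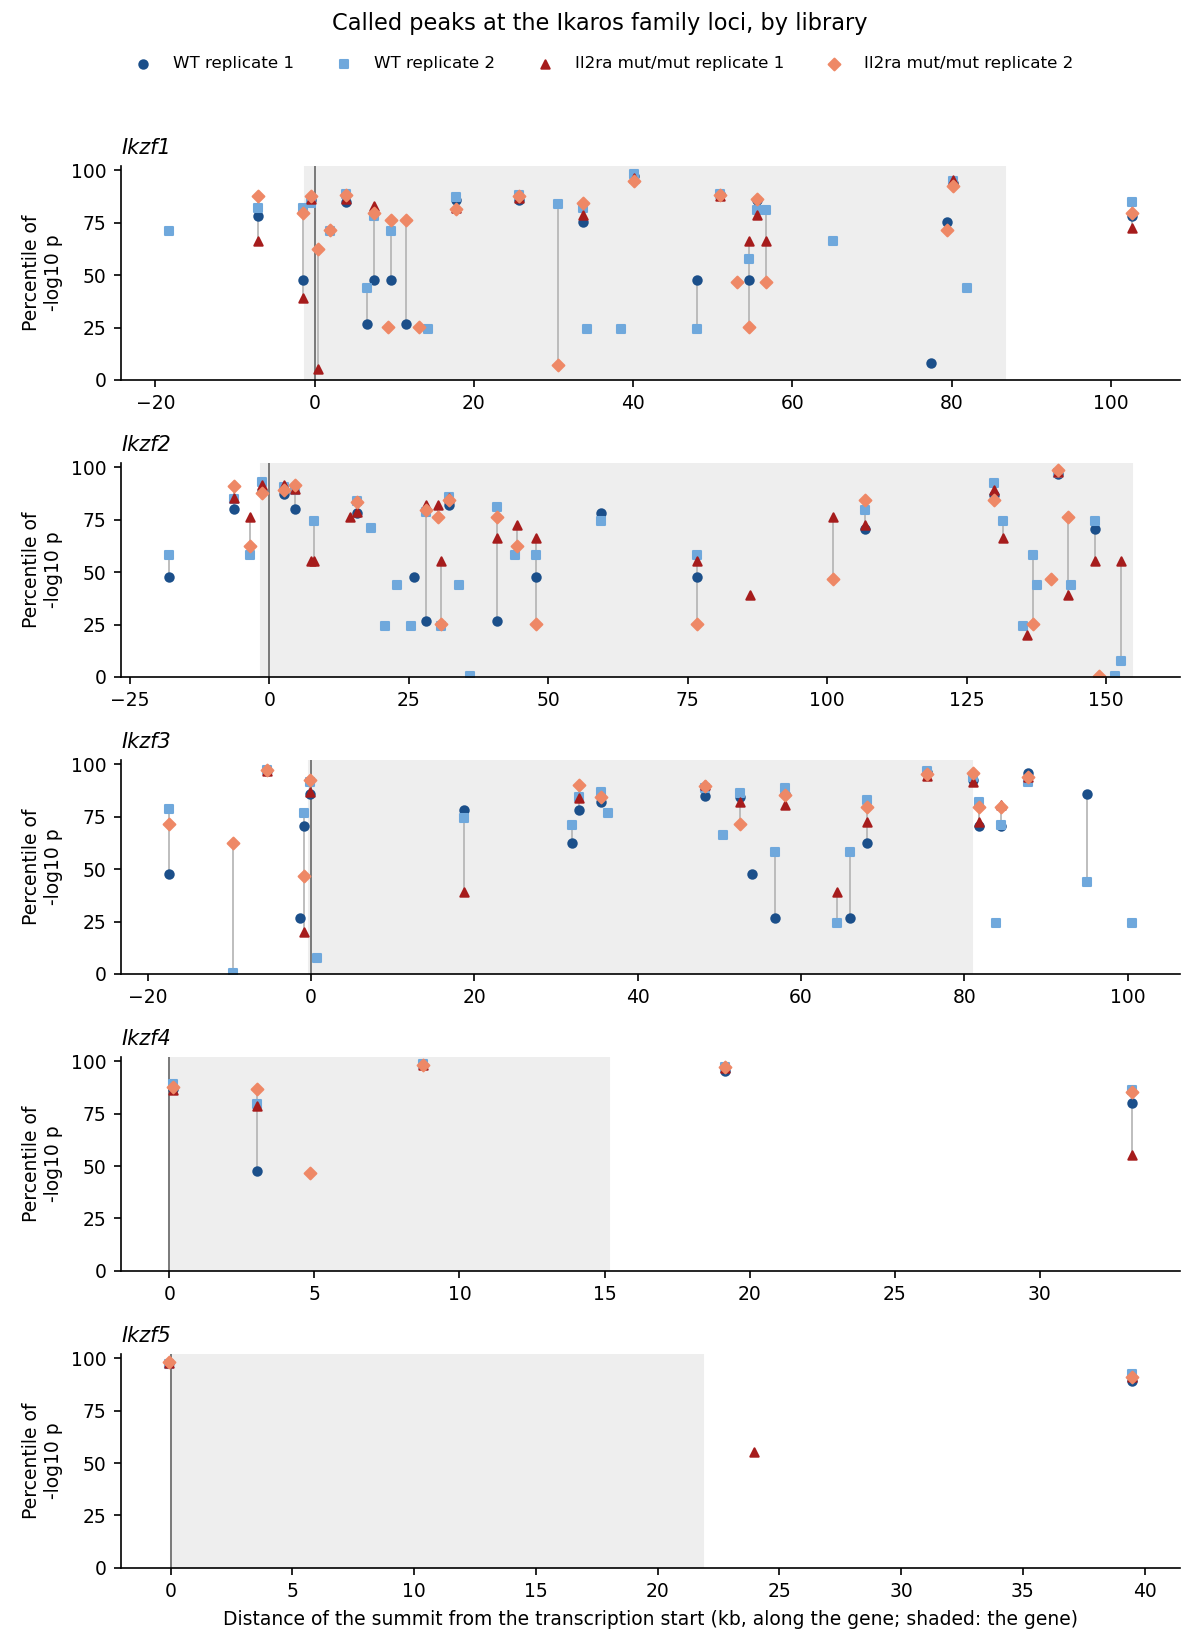
Percentile of −log10 p within its library (vertical axis, 0 to 100) against the distance of the region's summit from the start of the longest coding transcript (horizontal axis, kb), for the 115 regions of the 5 loci. Each point is a library and grey lines join the libraries of a region; the tight groups near the top are regions called in all 4 libraries, and most scattered single points lie lower.

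Ikzf1 (ENSMUSG00000018654, chr11:11685003-11772926, plus strand, mm10) encodes Ikaros, the founding member of the family. Its tallest region lay far inside the gene, in intron 3, 40.1 kb after the start of the longest coding transcript (chr11:11725537-11727323). It held 65, 108, 68 and 46 reads at the summit, which is a fold enrichment of 33.4, 55.1, 31.0 and 22.8, at the percentiles 97.5, 98.4, 96.5 and 95.1. Both WT libraries thus ranked it above both Il2ramut/mut libraries, although its reads in WT replicate 1 and Il2ramut/mut replicate 1 were close. The next region by rank lay in intron 7 (chr11:11766053-11766692) with 37, 56, 57 and 33 reads, percentiles from 92.8 to 95.5, and the genotypes overlapped. A further intron 3 region 50.9 kb from the start (chr11:11736559-11737414) held 22, 28, 24 and 20 reads.

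The Ikzf1 promoter was lower than these intronic regions. The region over 4 annotated starts (chr11:11685369-11686511), which also covers the start of Gm11999, held 18, 20, 21 and 19 reads, at the percentiles 86.0, 84.5, 86.2 and 87.7. A smaller region over another annotated start (chr11:11684483-11685181) held 8, 17, 9 and 12 reads, and its libraries spread from the percentile 39.1 to 82.1 without regard to genotype. Between the promoter and intron 3, a region in intron 1 (chr11:11693472-11693927) held 8, 14, 17 and 12 reads. It ranked higher in both Il2ramut/mut libraries, although WT replicate 2 held more reads than Il2ramut/mut replicate 2. An upstream region 7.1 kb before the start (chr11:11678771-11679406) held 12, 17, 11 and 19 reads, and here the libraries of a genotype did not group together. Regions called in a single genotype were weak: chr11:11692624-11693060 with 7 and 8 reads and chr11:11733931-11734319 with 8 and 7 reads in WT, and chr11:11686648-11687063 with 7 and 9 reads in Il2ramut/mut.

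Ikzf2 (ENSMUSG00000025997, chr1:69531214-69687245, minus strand) encodes Helios, which marks a large share of Treg cells. It is the longest gene of the family and had the most regions. The tallest one was again deep inside the gene, in intron 6, 141.4 kb from the start (chr1:69544040-69544689). Its summit held 56, 87, 91 and 97 reads, a fold enrichment of 28.9, 44.5, 41.3 and 47.6, at the percentiles 96.7, 97.5, 98.0 and 98.6. Both Il2ramut/mut libraries ranked it above both WT libraries, with WT replicate 1 as the lowest. The promoter region (chr1:69686940-69688181), over 2 annotated starts, held 22, 44, 36 and 19 reads at the percentiles 88.6, 92.8, 91.8 and 87.7, so each genotype had a high and a low library. A region at exon 3, 2.6 kb from the start (chr1:69682987-69683541), held 20, 34, 35 and 22 reads with the same overlap.

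The long intron 3 of Ikzf2 held 4 of the 6 regions of this locus that were called in a single genotype. A region 59.5 kb from the start (chr1:69626215-69626508) held 12 and 12 reads in WT, at the percentiles 78.2 and 74.5, and had no called peak in Il2ramut/mut. Conversely, a region at 30.2 kb (chr1:69655385-69655883) held 16 and 11 reads in Il2ramut/mut, at the percentiles 81.9 and 76.5, and no called peak in WT. These are the printed single-genotype sequences. A neighbour at 28.1 kb (chr1:69657460-69657826) was called in all 4 libraries with 7, 14, 16 and 12 reads, at the percentiles 26.6, 78.5, 81.9 and 79.7, so that its difference rested mainly on WT replicate 1. A region at 106.7 kb (chr1:69578668-69579287) held 10, 15, 12 and 15 reads, and one at exon 8 (chr1:69537660-69538364) held 10, 12 and 10 reads in the WT libraries and Il2ramut/mut replicate 1. Further regions called in both Il2ramut/mut libraries alone held 9 and 11 reads (chr1:69542498-69542880), 13 and 8 (chr1:69584593-69585023) and 12 and 9 (chr1:69641244-69641493). In WT alone, a region upstream of the gene (chr1:69703652-69704091) held 8 and 9 reads.

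Ikzf3 (ENSMUSG00000018168, chr11:98464902-98546031, minus strand) encodes Aiolos, the closest relative of Ikaros. The highest percentiles of its window belonged to a region 5.4 kb upstream (chr11:98549627-98551791), which covers the start of Zpbp2, a gene of sperm function, with 56, 87, 72 and 69 reads and percentiles from 96.7 to 97.5. Within the gene, the tallest region lay in intron 7 (chr11:98469732-98471047), with 52, 74, 50 and 47 reads, a fold enrichment of 26.8, 37.9, 22.9 and 23.3, and the percentiles 96.3, 96.7, 94.5 and 95.3. Both WT libraries ranked it above both Il2ramut/mut libraries. A region at the 3' end (chr11:98464455-98464940) held 32, 52, 36 and 53 reads, and replicate 2 of each genotype was the higher.

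The Ikzf3 promoter region (chr11:98545677-98546249), over 2 annotated starts, held 18, 39, 22 and 32 reads at the percentiles 86.0, 91.8, 86.8 and 92.6, again with replicate 2 of each genotype higher. Just upstream, 0.9 kb from the start, a weak region (chr11:98546511-98547025) held 10, 13, 8 and 8 reads at the percentiles 70.7, 76.7, 19.8 and 46.7. Its mean percentile was lower in Il2ramut/mut by 40.4 points, the widest such difference among the 47 regions, for a difference of 2 to 5 reads, because a few reads span many percentiles among small peaks. A region in intron 3 (chr11:98492954-98493493) held 16, 23, 16 and 10 reads and also ranked lower in both Il2ramut/mut libraries. Another intron 3 region (chr11:98510041-98510554) held 14, 24 and 15 reads and had no called peak in Il2ramut/mut replicate 1, and one in intron 1 (chr11:98526802-98527510) held 12, 12 and 9 reads and had none in Il2ramut/mut replicate 2.

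Regions called in both WT libraries alone numbered 4 at Ikzf3, and none was called in both Il2ramut/mut libraries alone. They held 18 and 8 reads (chr11:98450590-98450900, nearest to the start of Grb7), 7 and 9 (chr11:98479504-98479940), 7 and 9 (chr11:98488787-98489059, over an annotated start of a short Ikzf3 transcript) and 9 and 11 (chr11:98513456-98514148). A further 3 regions of the 3' part were called in all libraries, with the reads 10, 11, 15 and 12 (chr11:98461135-98461566), 10, 17, 12 and 12 (chr11:98463819-98464427) and 9, 18, 12 and 12 (chr11:98477194-98477818, over another annotated start). The first of these ranked higher in both Il2ramut/mut libraries, and in the others the genotypes overlapped.

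Ikzf4 (ENSMUSG00000002578, chr10:128630843-128645991, minus strand) encodes Eos, a corepressor partner of Foxp3. Its tallest region lay in intron 5, 8.7 kb from the start (chr10:128636574-128637732), and ranked first in the family in 3 of 4 libraries. Its summit held 82, 121, 101 and 84 reads, a fold enrichment of 42.0, 61.6, 45.8 and 41.3, at the percentiles 98.5, 98.8, 98.4 and 98.1. In Il2ramut/mut replicate 2 the Ikzf2 intron 6 region ranked higher. The region downstream of the gene that covers the start of Rps26, a ribosomal protein gene (chr10:128626243-128627146), held 47, 87, 75 and 72 reads. At the promoter (chr10:128645198-128646787), over 6 annotated starts of Ikzf4 and the start of Gm26876, 19, 30, 21 and 19 reads were found, at the percentiles 86.7, 89.3, 86.2 and 87.7. A region in intron 2 (chr10:128642684-128643184) held 8, 15, 14 and 18 reads and one downstream (chr10:128612633-128613463) 13, 23, 10 and 16 reads, and in both the genotypes overlapped.

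Ikzf5 (ENSMUSG00000040167, chr7:131388652-131410521, minus strand) encodes Pegasus and differed from its relatives in where it was open. Its tallest region was the promoter (chr7:131409927-131410926), which covers 6 annotated starts of Ikzf5 and the start of Acadsb, an acyl-CoA dehydrogenase gene on the other strand. It held 70, 83, 86 and 84 reads, a fold enrichment of 36.0, 42.4, 39.0 and 41.3, at the percentiles 97.9, 97.3, 97.8 and 98.1. Apart from this promoter region, no called region lay in the body of Ikzf5 in any library. The other region called in all libraries lay beyond the 3' end over the start of Pstk (chr7:131370620-131371656), with 23, 42, 33 and 26 reads.

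Set side by side, the members differed in the place of their tallest region. At Ikzf1, Ikzf2, Ikzf3 and Ikzf4 the tallest region within the gene was intronic, and its fold enrichment exceeded that of the promoter in each of the 4 libraries. At Ikzf5 the promoter itself was the tallest. Promoter fold enrichment was 9.62, 10.6, 9.87 and 9.72 at Ikzf1, 11.7, 22.7, 16.6 and 9.72 at Ikzf2, 9.62, 20.2, 10.3 and 16.04 at Ikzf3 and 10.1, 15.7, 9.87 and 9.72 at Ikzf4. Every one of these 16 values lay below the lowest Ikzf5 value of 36.0. The Ikzf5 promoter is shared with Acadsb, and how much of its signal belongs to either gene was not tested.

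**Figure D3:**
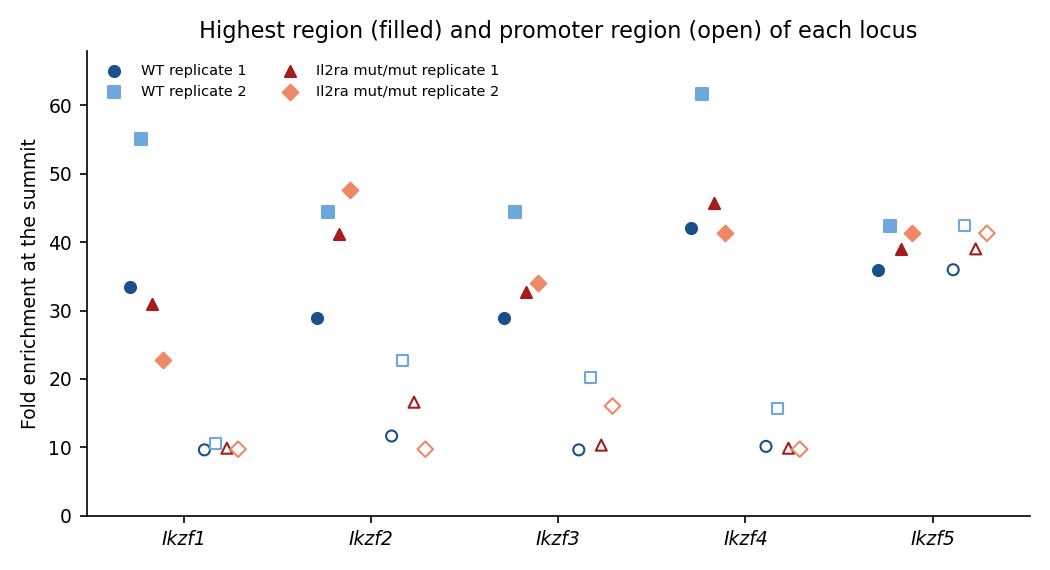
Fold enrichment at the summit, in the authors' units, for the region of each locus with the highest rank over all libraries (filled) and for the highest-ranked region over a start of the member (open), 1 point per library. At Ikzf5 they are the same region; the filled Ikzf3 points are the region over the start of Zpbp2.

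Between genotypes, regions found in both WT libraries and in no Il2ramut/mut library numbered 8 of 115 (6.96%, against 2.70% over the genome), 2 at Ikzf1, 2 at Ikzf2 and 4 at Ikzf3. The reverse held for 5 (4.35%, against 3.56%), 1 at Ikzf1 and 4 at Ikzf2. Since family regions were called in several libraries more often than other regions, the 23 that were called in exactly 2 libraries give a closer reading. Of these, 8 were both WT (34.8%, against 16.4% over the genome) and 5 were both Il2ramut/mut (21.7%, against 21.6%). The other 10 were 1 of each (43.5%, against 62.0%). The regions called in a single genotype held 7 to 18 reads at a summit. With weaker peaks removed (−log10 q under 3), 4 of 99 regions were found in WT alone (1.89% over the genome) and 4 in Il2ramut/mut alone (4.22%). Requiring a call in only 1 library of a genotype, by leaving the other out, gave 30 of 111 regions in WT alone without WT replicate 1 (20.4% over the genome) and 14 of 98 without WT replicate 2 (18.04%). In Il2ramut/mut alone it gave 11 of 110 without Il2ramut/mut replicate 1 (27.1% over the genome) and 10 of 111 without Il2ramut/mut replicate 2 (22.6%). The number in Il2ramut/mut alone was also 9 of 98 without WT replicate 2 (7.42% over the genome). These counts thus moved over the whole genome as well.

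Among the 47 regions called in all 4 libraries, the percentiles of both WT libraries stood above both Il2ramut/mut libraries in 8 (17.0%, against 12.6% over the genome), 3 at Ikzf1, 4 at Ikzf3 and 1 at Ikzf4. The reverse order was seen in 8 (17.0%, against 26.2%), 2 at Ikzf1, 4 at Ikzf2 and 2 at Ikzf3. In the remaining 31 of 47 the genotypes overlapped, against 23535 of 38426 over the genome. Among regions without overlap, the widest differences toward WT were those of the Ikzf3 regions 0.9 kb before and 52.6 kb after the start, and toward Il2ramut/mut those of Ikzf2 intron 3 (28.3 points) and Ikzf1 intron 1 (18.2 points). In these Ikzf2 and Ikzf1 regions, however, WT replicate 2 held 14 reads against 12 in Il2ramut/mut replicate 2. Quantile-normalized log2 fold enrichment was also used, a scale chosen after the values were seen. On it, those libraries had the same value (2.71) in both regions. The split on this scale was 12 toward WT and 4 toward Il2ramut/mut, against 17.5% and 18.2% of the regions of the genome. The split also moved when 1 library was left out: toward WT it was 25 of 50 without WT replicate 1 (29.7% over the genome), 18 of 49 without Il2ramut/mut replicate 2 (33.5%) and 14 of 50 without Il2ramut/mut replicate 1 (23.2%). Toward Il2ramut/mut it was 25 of 47 without WT replicate 2 (46.7% over the genome) and 19 of 50 without Il2ramut/mut replicate 1 (49.03%). The shares over the genome rose with them. With 2 libraries against 2, an exact permutation test of a single region cannot go below 0.33, so none was used.

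The limma fit over all 38426 such regions of the genome put no family region past an adjusted p of 0.05, nor any other region (0% called). At an unadjusted p under 0.05 there were 4 family regions (8.51%, against 8.55% over the genome). They were the Ikzf1 intron 3 region, with a log2 fold enrichment lower in Il2ramut/mut by 0.68 (difference −0.68, 95% interval −1.13 to −0.22), Ikzf3 intron 7 (−0.44, interval −0.78 to −0.11), the region 0.9 kb upstream of Ikzf3 (−0.55, interval −1.02 to −0.08), and Ikzf2 intron 6 (0.32, interval 0.01 to 0.63). The limma adjusted p of each was 0.582. With the libraries centred on their medians in place of quantile normalization, the Ikzf1 intron 3 region had an adjusted p of 0.042 by limma (difference −0.63), as the only family region among the 0.828% called over the genome.

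The tallest region of Ikzf4 differed by −0.22 (interval −0.52 to 0.08) and the Ikzf5 promoter by 0.05 (interval −0.29 to 0.38). The promoters of Ikzf1, Ikzf2, Ikzf3 and Ikzf4 differed by 0.04 (interval −0.55 to 0.62), −0.28 (−1.04 to 0.48), −0.04 (−0.75 to 0.68) and −0.27 (−0.80 to 0.25). These intervals do not show equality, since the median half-width over the 47 regions was 0.59 on the log2 scale. Over the family, 30 differences were below 0 and 17 above, with a median of −0.07 (0.00 over the genome). The median difference in percentile had the opposite sign, 0.154 points toward Il2ramut/mut (0.646 over the genome).

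**Figure D4:**
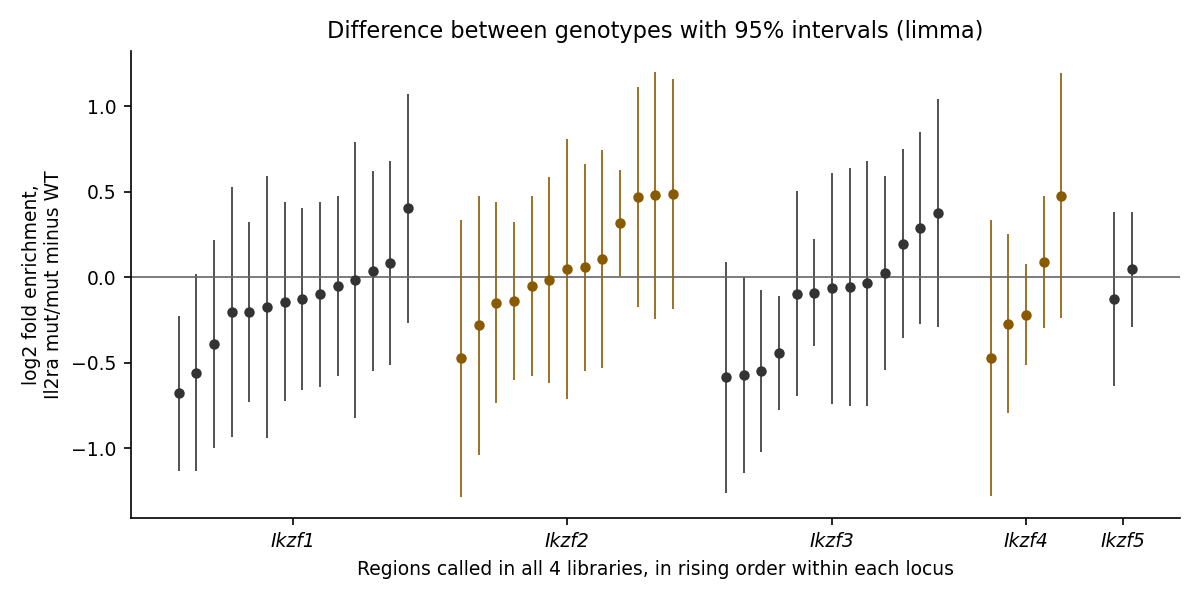
Difference in quantile-normalized log2 fold enrichment (Il2ramut/mut minus WT, 2 libraries each) with its 95% interval from limma, for the 47 regions called in all 4 libraries, ordered within each locus. The intervals of 43 regions include 0; the others are 3 regions of Ikzf1 and Ikzf3 below 0 and 1 of Ikzf2 above 0.

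Following the study's own procedure, reproducible open chromatin regions (OCRs) were called within each genotype by the irreproducible discovery rate (IDR at most 0.05), which asks whether the ranks of a peak in the 2 replicates belong together. Tied ranks were broken at random with a fixed seed, so regions with equal values could get different IDRs. For example, regions with 12 reads in each Il2ramut/mut library had Il2ramut/mut IDRs of 0.0298 (chr11:98477194-98477818), 0.0382 (chr11:11788445-11789137) and 0.0490 (chr11:98463819-98464427). How far the classes depend on the seed was not tested. The loci held 48 OCRs, of which 31 were common to both genotypes (64.6%, against 71.9% over the genome). A further 10 were unique to WT (20.8%, against 14.4%) and 7 unique to Il2ramut/mut (14.6%, against 13.7%). Ikzf1 had 10 common, 1 WT-unique and 1 Il2ramut/mut-unique OCR. Ikzf2 had 8, 3 and 2, Ikzf3 had 8, 4 and 3, Ikzf4 had 3, 2 and 1, and both OCRs of Ikzf5 were common. By contrast, the paper reports no differential OCRs at the Helios gene. The unique OCRs of Ikzf2 all had an IDR between 0.0139 and 0.0479, so none met an IDR of at most 0.01. Those at chr1:69578668-69579287 and chr1:69657481-69657826 also lay under called peaks of both libraries of the other genotype. The IDR step was computed anew here and gave 25356 WT and 25604 Il2ramut/mut OCRs, which differ from the paper's LN totals. The cause of either difference was not tested. The tallest intronic regions and the main promoter regions were common, and the Ikzf4 promoter region held a second, WT-unique OCR at its far end (chr10:128646289-128646787).

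Here as over the genome, most unique OCRs were also under called peaks of the other genotype. Peaks of both Il2ramut/mut libraries lay over 6 of the 10 WT-unique OCRs (72.3% over the genome). A peak of a single one lay over 3 (870 of 4205 over the genome), and no peak over 1 (296 of 4205). For the Il2ramut/mut-unique OCRs, peaks of both WT libraries lay over 6 of 7 (75.8% over the genome), and no peak over 1 (138 of 4008). The OCRs without any peak in the other genotype were the printed pair in Ikzf2 intron 3, with an IDR of 0.0294 for the WT region and 0.0270 for the Il2ramut/mut region. At an IDR of at most 0.01 neither was reproducible. The family then had 28 common, 7 WT-unique and 2 Il2ramut/mut-unique OCRs (76.7%, 11.6% and 11.7% over the genome). With a library left out, no IDR was possible for its genotype, so the strongest peaks of the remaining library stood in. They were taken by −log10 p, as many as the OCRs of that genotype. Without Il2ramut/mut replicate 1 there were 34 common, 7 WT-unique and 1 Il2ramut/mut-unique OCR (72.0%, 14.8% and 13.2% over the genome). Without WT replicate 1 there were 34, 10 and 4 (71.9%, 14.1% and 13.98%).

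Genes for the chromatin complexes that the family works with were examined in the same way as a reference: the NuRD genes Chd4, Chd3, Mta1, Mta2, Mta3, Hdac1, Hdac2, Rbbp4, Rbbp7, Mbd3, Gatad2a and Gatad2b, the Sin3 scaffolds Sin3a and Sin3b, the corepressors Ctbp1 and Ctbp2, the remodelling ATPase Smarca4, and Crbn, through which thalidomide analogues direct human Ikaros and Aiolos to degradation. A start site was under a region called in all 4 libraries in 16 of these 18 genes, the exceptions being Chd3 and Ctbp2. Their windows held 144 regions, of which 70 (48.6%) were called in all 4 libraries. In WT alone 4 were found (2.78%, against 2.70% over the genome) and in Il2ramut/mut alone 3 (2.08%, against 3.56%). None passed the limma threshold, and 6 had an unadjusted p under 0.05 (8.57%, against 8.55%). The OCRs were 54 common, 9 WT-unique (14.1%, against 14.4%) and 1 Il2ramut/mut-unique (1.56%, against 13.7%). The mean share of a window under peaks ranged from 0.695% at Ctbp2 to 8.23% at Mta1, so only Ikzf3 lay above the highest of these genes.

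Loci most like each member were sought by the share of the window under peaks in the 4 libraries, among genes with a window of similar length (within 20%). For Ikzf3 the closest of 2155 genes were Stat5b, which encodes a transducer of IL-2 signals, with 8.28%, 12.2%, 6.55% and 8.01%, then Cd247 and Plec. For Ikzf1 they were Elmsan1, B3gnt2 and Fam53b among 1980 genes, and for Ikzf2 Lclat1, Arid5b and Rgs3 among 987. Those of Ikzf4 were Gm35339, Anp32b and Sun2 among 10073, and those of Ikzf5 Hnrnph3, Trmt10a and Epp13 among 7545. The likeness describes amounts of called peak only, over 4 libraries.

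Short words for transcription factors were counted in the 200 bases around the summits of the 47 regions called in all 4 libraries, beside 38281 such windows of the genome. The Ikaros core TGGGAA was found in 7 windows (14.9%, against 14.4%). The STAT word TTCNNNGAA, to which STAT5 can bind downstream of the IL-2 receptor, was found in 4 (8.51%, against 5.91%), namely in Ikzf1 intron 1 (3.9 kb from the start) and intron 3, Ikzf2 intron 6 and the Ikzf4 promoter. The words can overlap, as in Ikzf1 intron 3. The RUNX word TGTGGT was present in 14 (29.8%, against 19.2%), the ETS word AGGAAG in 15 (31.9%, against 35.2%), the TCF/LEF word CTTTGA in 6 (12.8%, against 13.02%) and the GATA word AGATAA in 5 (10.6%, against 7.60%). The AP-1 word TGANTCA was present in 2 (4.26%, against 7.96%) and the forkhead word GTAAACA in 1 (2.13%, against 2.72%). The median G+C content was 48.5% in family windows and 52.0% over the genome. A word is a match of letters and not a bound site.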

How the data were processed

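Per the labels and the paper's methods, the authors trimmed reads with Trim Galore (0.3.7), aligned them to mm10 with BWA (0.7.13), removed duplicated and mitochondrial reads and called narrow peaks per library with MACS2 (2.1.0). The deposited lists give the fold enrichment (a ratio), −log10 p, −log10 q, a score and the summit. Library totals are not given, so depth is unknown, and intervals cover the spread between 2 libraries per genotype only.

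Regions were merged and placed on GENCODE vM21 gene models with pandas (2.3.3) and numpy (2.4.6). Introns are numbered in the longest coding transcript. Genotypes were compared with limma (3.58.1) on quantile-normalized log2 fold enrichment, with Benjamini-Hochberg adjustment over all 38426 regions called in the 4 libraries. IDR was computed in Python (3.11.15). The merging, the OCR classes, the word search, the IDR and the limma fit were tested on simulated data. Same-numbered replicates did not deviate together (r = 0.011 over 38426 regions), so they were not paired.

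The regions named are those over a member's start, the 3 highest-ranked per locus, those called in a single genotype, the widest differences and unique OCRs. The members, lists and rules were chosen with earlier results of these data known. Figures used matplotlib (3.10.9). One of the marker genes is not reported here.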

Additional observations from a re-analysis of the deposited data

How the results depend on the processing

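The family held 94 to 132 regions under every alternative run (peaks with a −log10 q of 3 or more, equal peak numbers, a 50% overlap, gene body alone, 50 kb flanks, each library left out and, chosen after seeing the data, regions without another gene's start), and 98 to 111 with a library left out. Those called in all 4 libraries numbered 36 to 55 under the same alternatives other than leaving a library out. Regions in Il2ramut/mut alone fell from 5 to 3 with a 50% overlap (2.91% over the genome) and were 5 to 11 with a library left out (5.81% to 27.1%). Regions in WT alone fell from 8 to 4 at a −log10 q of 3 or more (1.89% over the genome) and were 10 to 30 with a library left out (4.93% to 20.4%, against 2.70% with all 4). Leaving out a library loosens these rules by construction, as it does the non-overlap rule. That rule then gave 10 to 25 regions toward WT (22.1% to 33.5% over the genome) and 12 to 25 toward Il2ramut/mut (35.8% to 49.0%). On quantile-normalized fold enrichment, also chosen after seeing the data, 4 regions were higher in Il2ramut/mut (18.2% over the genome). Percentiles of fold enrichment gave the same counts as those of −log10 p. Il2ramut/mut-unique OCRs numbered 2 at an IDR of at most 0.01 and 1 to 8 with a library left out, WT-unique ones 7 to 10 and common ones 30 to 34. The counts with a library left out used the strongest peaks of the remaining library of that genotype, without IDR. The shares over the genome were then 13.2% to 15.8%, 14.1% to 15.5% and 69.9% to 72.0%. Without the IDR step there were 47 common, 13 WT-unique and 8 Il2ramut/mut-unique OCRs (48.0%, 23.3% and 28.7% over the genome).

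With limma, 0 family regions were called under quantile normalization, with only regions of a mean percentile of at least 50, on −log10 p, with each library left out (where a lone library is assumed to vary like the others) and with the replicate block (0 called, 3 at an unadjusted p under 0.05), and 1 with median centring. The cause of these changes was not tested. Summits of 5 to 13 reads in single-library regions and 7 to 18 in single-genotype regions limit what they can show.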

Other observations

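WT replicate 2 alone held 22 of the 37 regions called in a single library, 11 of them at Ikzf2, 6 at Ikzf1 and 5 at Ikzf3. In the 47 regions called in all 4 libraries its summed reads were 1616, against 1051, 1342 and 1230 in WT replicate 1 and Il2ramut/mut replicates 1 and 2. Over the 38426 such regions of the genome the sums were 956896, 1322749, 1225146 and 1151909 in the usual order. The cause was not tested.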
